A study of Mus musculus with 2 samples.

Results

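Nuclear genes of the oxidative phosphorylation complexes were compared between dendritic cells grown from CBA/J marrow and from C57BL/6 marrow. The genes were taken by symbol, as every single-symbol gene whose name begins with Nduf, Sdha to Sdhd, Uqcr, Cox4 to Cox8 or Atp5. This gave 87 genes of 21922 on the array. Of these, 81 encode structural subunits and 6 encode assembly factors or proteins that only share a name prefix. Cyc1 of complex III lies outside these prefixes and is described with the electron carriers.

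CBA/J cells were compared with C57BL/6 cells, both from normal mice with no further treatment. Marrow of each strain was grown to day 7 with a supernatant holding GM-CSF, a cytokine that drives dendritic cell growth, and RNA was taken from wells combined 4 h after plating. Each strain was measured on 1 Affymetrix Mouse Gene 1.0 ST array, which reads transcripts through probes along their exons. There is thus no replicate error and no test, and strain cannot be told apart from animal, culture or array. How many mice were used, their sex and age, and which C57BL/6 substrain are not given in the sources used here. Values are log2 signals, and a difference is CBA/J minus C57BL/6. Probes were designed on the mouse reference genome, that of C57BL/6, and the effect of sequence differences in CBA/J transcripts on their signal was not tested.

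Oxidative phosphorylation takes place in the inner mitochondrial membrane. Complexes I and II pass electrons from NADH and succinate to ubiquinone, complex III passes them on to cytochrome c, and complex IV passes them to oxygen. Complexes I, III and IV pump protons, and complex V, the ATP synthase, uses the proton gradient to make ATP. In dendritic cells this pathway is known to serve the resting state, whereas activation through Toll-like receptors shifts the cells toward glycolysis. A few subunits of complex IV exist in tissue isoforms, typical of muscle, testis or lung, beside a broadly expressed form.

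Promoter sequence was read for short motifs, each of which was present in a minority of the broadly expressed subunit genes. Windows of 250 bases before to 50 bases after each start came from RefSeq (GRCm38.p6), and 71 of the 87 genes were in that table. The 250 bases before the start are given for 2 broadly expressed genes, Cox6a1 of complex IV and Sdhb of complex II, and for 2 muscle isoforms of complex IV, Cox7a1 and Cox8b. They lie at chr5:115348959-115349208 on the minus strand, chr4:140961021-140961270 on the plus strand, chr7:30183921-30184170 on the plus strand and chr7:140900447-140900696 on the minus strand, and are written 5' to 3' along the gene. Capitals mark matches to a searched motif, which in Cox6a1 are an NRF1 motif that overlaps its own reverse complement and an ETS motif, in Sdhb an NRF1 motif and in Cox8b an E-box.
Cox6a1: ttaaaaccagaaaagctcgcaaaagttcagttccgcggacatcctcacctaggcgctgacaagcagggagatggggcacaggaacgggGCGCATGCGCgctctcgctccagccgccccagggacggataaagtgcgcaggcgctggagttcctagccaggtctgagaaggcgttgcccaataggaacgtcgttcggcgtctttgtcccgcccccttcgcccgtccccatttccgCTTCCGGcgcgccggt
Sdhb: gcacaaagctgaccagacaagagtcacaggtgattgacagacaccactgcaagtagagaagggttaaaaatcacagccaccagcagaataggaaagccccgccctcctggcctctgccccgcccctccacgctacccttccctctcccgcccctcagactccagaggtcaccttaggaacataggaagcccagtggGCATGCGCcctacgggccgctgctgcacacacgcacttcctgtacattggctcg
Cox7a1: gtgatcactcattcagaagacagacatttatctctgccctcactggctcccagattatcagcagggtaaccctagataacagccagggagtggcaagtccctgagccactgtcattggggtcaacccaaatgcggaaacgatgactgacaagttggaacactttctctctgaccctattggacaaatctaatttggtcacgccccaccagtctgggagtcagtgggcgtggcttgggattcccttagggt
Cox8b: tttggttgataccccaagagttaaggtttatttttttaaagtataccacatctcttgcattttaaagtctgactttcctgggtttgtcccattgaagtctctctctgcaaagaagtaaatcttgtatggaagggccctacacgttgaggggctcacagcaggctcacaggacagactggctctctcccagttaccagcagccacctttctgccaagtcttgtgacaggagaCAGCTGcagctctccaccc

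The motifs searched on both strands over the whole window were GCGCATGC for NRF1, a factor known to act on respiratory chain genes, CCGGAAG for ETS factors, AAGATGGC for YY1, CAGCTG as a muscle-type E-box and TATAAA. Among 67 windows of structural subunits other than tissue isoforms, the NRF1 motif was in 14.9%, the ETS motif in 23.9% and the YY1 motif in 14.9%. Over all 32851 windows of the table the shares were 2.71%, 8.86% and 2.75%. The E-box was in 7.46% of the subunit windows and in 16.3% of all windows, and TATAAA in 8.96% and 13.6%. The mean share of G and C bases was 58.0% in the subunit windows and 53.8% in all windows, and its part in these shares was not tested. Of 4 windows of tissue isoforms, none held the NRF1, ETS or YY1 motif, 1 held the E-box and 2 held TATAAA. A match is a string of letters in a window, not a shown binding site.

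The 2 strains gave nearly the same signal for most of these genes. A gene entered the counts if its higher signal reached the median of all genes on the same array, 6.16 for CBA/J and 6.21 for C57BL/6. This level rule was met by 79 of the 87 genes. Of the 79, 39 were higher and 40 lower in CBA/J, so that 49.4% were higher, against 61.3% of all 11442 genes that met the rule. Their median difference was -0.0024 on the log2 scale, against 0.076 over all genes. Differences within 0.2 made up 59 of the 79 (74.7%), against 53.1% of all genes. The robust SD across genes, which are not replicates, was 0.17 for the members and 0.26 for all genes.

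Rescaling the arrays moved these signs. With both arrays given the same distribution by quantile normalization, 29 members were higher and 50 lower in CBA/J, while the share of all genes that were higher fell to 51.1%. With the differences centred on the median of all genes, 28 members were higher and 51 lower. With the trend of the difference along signal level removed, 25 were higher and 54 lower. The members' median was then -0.064, -0.079 and -0.075, so all 4 medians lay within 0.1 of 0 on the log2 scale.

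Past 1.5-fold lay 2 members, Cox6a2 and Ndufa3, both lower in CBA/J. Over all genes 2.47% were at least 1.5-fold lower in CBA/J and 4.46% at least 1.5-fold higher, and no member was 1.5-fold higher. Past 2-fold lay Cox6a2 alone, lower in CBA/J. Among all genes 0.795% were at least 2-fold lower and 1.35% at least 2-fold higher. The differences of the 79 members ran from -1.05 for Cox6a2 to 0.35 for Atp5g1.

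**Figure D1:**
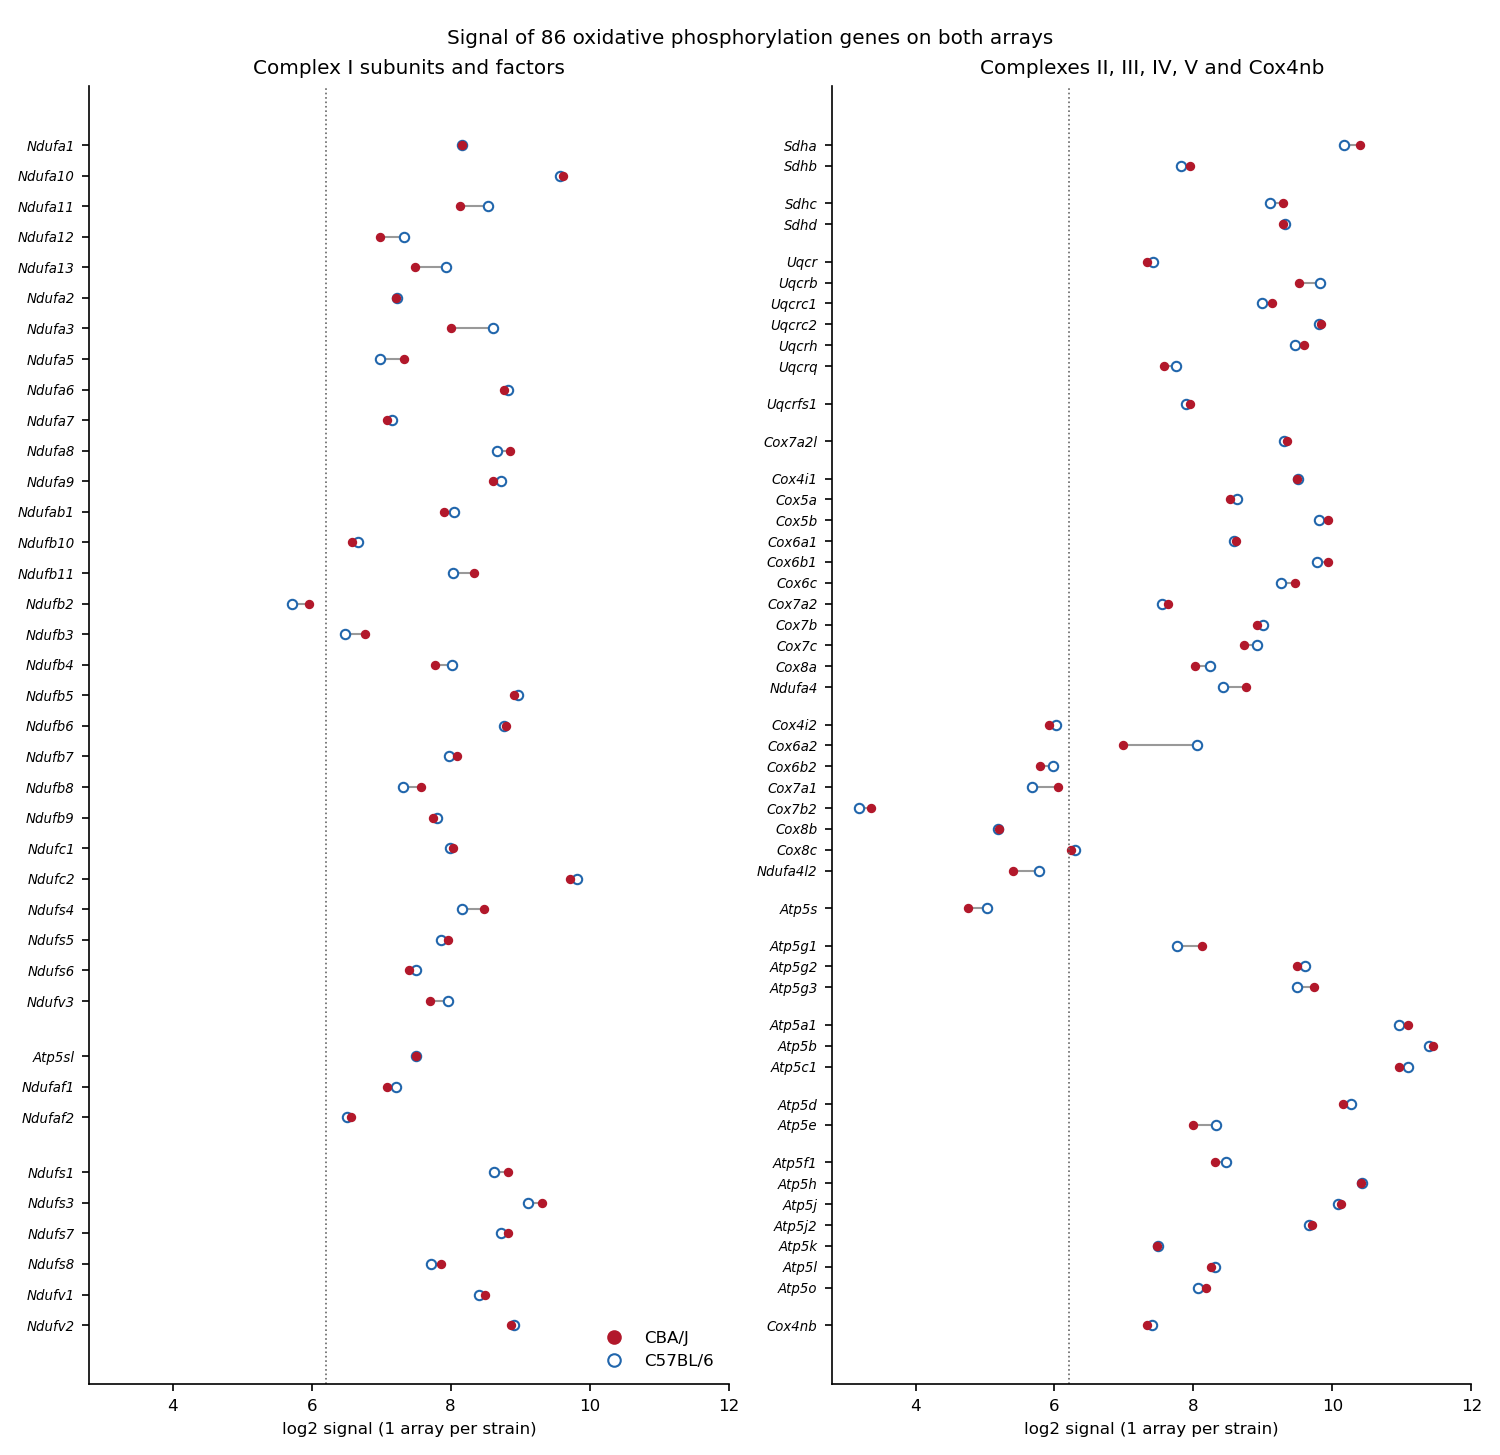
Log2 signal (x axis) of 86 of the 87 genes (y axis) on the CBA/J array (filled red) and the C57BL/6 array (open blue), 1 array per strain, with a line joining the points of a gene and a dotted line near the array medians. For most genes the points nearly coincide, and the longest line is that of Cox6a2, 6.99 in CBA/J against 8.04 in C57BL/6.

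The cell mixture of the cultures was read from marker lists. Of 12 conventional dendritic cell markers, 11 met the level rule, among them Itgax (CD11c) at 10.50 in CBA/J against 10.63 in C57BL/6, while Flt3 did not, at 5.67 in CBA/J against 5.65 in C57BL/6. Of the 11, 4 were higher and 7 lower in CBA/J, with a median difference of -0.23. They ran from H2-Ab1, an MHC class II chain, at -1.28 to Cd209a, a C-type lectin receptor, at 4.20, with Ciita, the MHC class II transactivator, at 0.92, so the marker signals did not match between the strains. Of 7 monocyte and macrophage markers measured, 6 were higher in CBA/J, and their linear signals summed to 10627 in CBA/J and 7449 in C57BL/6. Of 7 neutrophil markers, 4 met the level rule and all 4 of those were past 2-fold, higher in CBA/J, with a summed signal over the 7 of 1465 in CBA/J against 499.5 in C57BL/6. The part of these cells in any difference below was not tested. In bulk RNA, fewer cells of a type and less RNA per cell cannot be told apart.

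In complex I, the NADH dehydrogenase, 35 of 36 subunit genes met the level rule, and 17 were higher and 18 lower in CBA/J with a median difference of -0.0031. The single one below it was Ndufb2, an accessory subunit of the membrane arm, at 5.96 in CBA/J against 5.71 in C57BL/6. Of the 7 nuclear catalytic core subunits 6 were higher in CBA/J, with a median of 0.14. Over all genes at the level rule 61.3% were higher, with a median of 0.076. The core subunits also met a stricter level filter, of 7.75 in CBA/J and 7.65 in C57BL/6. Of all genes that met that filter 67.3% were higher in CBA/J, with a median of 0.10, so much of the core's lean is shared by bright genes. Of the 28 accessory subunits that met the level rule, which surround the core, 11 were higher and 17 lower, with a median of -0.062. After quantile normalization or centring 8 accessory subunits were higher and 20 lower, and with the trend removed 6 were higher and 22 lower, with medians between -0.14 and -0.13.

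The core subunits carry the flavin and the iron-sulphur clusters along which electrons run to ubiquinone. Ndufv1, which binds NADH, gave a log2 signal of 8.50 in CBA/J against 8.41 in C57BL/6, a difference of 0.092. Ndufs1, the largest iron-sulphur subunit, had 8.82 in CBA/J against 8.62 in C57BL/6, a difference of 0.20. Both were higher in CBA/J by less than the 1.5-fold mark of 0.585 on the log2 scale. Ndufs3, a core subunit of the peripheral arm, had 9.31 in CBA/J against 9.11 in C57BL/6, a difference of 0.21. Ndufs8, an iron-sulphur subunit, had 7.86 in CBA/J against 7.72 in C57BL/6, a difference of 0.14. Ndufs7, which holds the last cluster before ubiquinone, had 8.82 in CBA/J against 8.73 in C57BL/6, a difference of 0.098. Ndufv2 was the one core subunit lower in CBA/J, at 8.87 in CBA/J against 8.90 in C57BL/6. The core count was 5 of 7 higher after quantile normalization and 4 of 7 with the trend along signal level removed, and its median was 0.054 and 0.027 under those settings.

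Among accessory subunits the Ndufa genes leaned lower in CBA/J. Of 13 Ndufa genes of complex I, 3 were higher and 10 lower, with a median of -0.076. After quantile normalization, centring or removal of the trend, 2 were higher and 11 lower. The 9 Ndufb genes that met the rule held 5 higher and 4 lower, with a median of 0.021. The Ndufa genes ran from -0.61 to 0.34 and the Ndufb genes from -0.25 to 0.30.

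Ndufa3, a small accessory subunit of the membrane arm, gave a log2 signal of 8.01 in CBA/J against 8.61 in C57BL/6. It was 1.52-fold higher in C57BL/6, and lies just past the 1.5-fold mark. Ndufa13, also named GRIM-19 and known in human cells as a binding partner of STAT3, had 7.49 in CBA/J against 7.93 in C57BL/6, a difference of -0.45, or 1.36-fold higher in C57BL/6, and was the next below the mark. Ndufa11 and Ndufa12, both accessory subunits and named here after their values were seen, followed. Ndufa11 had 8.14 in CBA/J against 8.54 in C57BL/6, and Ndufa12 had 6.98 in CBA/J against 7.33 in C57BL/6. These 4 are the lowest differences in complex I. In the other direction, Ndufa5 had 7.33 in CBA/J against 6.98 in C57BL/6, a difference of 0.34. Ndufs4, an accessory subunit whose loss in mice gives an encephalopathy like Leigh syndrome, had 8.49 in CBA/J against 8.17 in C57BL/6, a difference of 0.32.

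Complex II, succinate dehydrogenase, links the TCA cycle to the chain and is wholly nuclear-encoded. All 4 genes met the level rule, 3 were higher in CBA/J, and the median difference was 0.15. Over all genes at the level rule 61.3% were higher, with a median of 0.076. Sdha, the flavoprotein that oxidises succinate, had 10.39 in CBA/J against 10.16 in C57BL/6, a difference of 0.23. Sdhb, the iron-sulphur subunit whose promoter is given above, had 7.95 in CBA/J against 7.83 in C57BL/6, a difference of 0.12. The membrane anchors were Sdhc at 9.29 in CBA/J against 9.10 in C57BL/6, and Sdhd at 9.28 in CBA/J against 9.31 in C57BL/6. The catalytic pair and one anchor were thus slightly higher in CBA/J. Under each rescaling 3 of the 4 were higher, with a median between 0.050 and 0.078.

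Complex III, the cytochrome bc1 complex, had 7 genes, 4 higher and 3 lower in CBA/J, with a median of 0.025. Uqcrfs1, the Rieske iron-sulphur protein and the catalytic one among them, had 7.96 in CBA/J against 7.90 in C57BL/6. The core proteins Uqcrc1 and Uqcrc2 had 9.13 and 9.83 in CBA/J, against 8.98 and 9.80 in C57BL/6. Uqcrh, the hinge protein, had 9.59 in CBA/J against 9.47 in C57BL/6, a difference of 0.12. All these were higher in CBA/J by 0.14 or less. Uqcrb, a small subunit, was lower, at 9.51 in CBA/J against 9.82 in C57BL/6, a difference of -0.31, and so was Uqcrq, at 7.57 in CBA/J against 7.76 in C57BL/6, a difference of -0.18. After each of the 3 rescalings 2 genes were higher and 5 lower, so no direction is read for complex III.

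**Figure D2:**
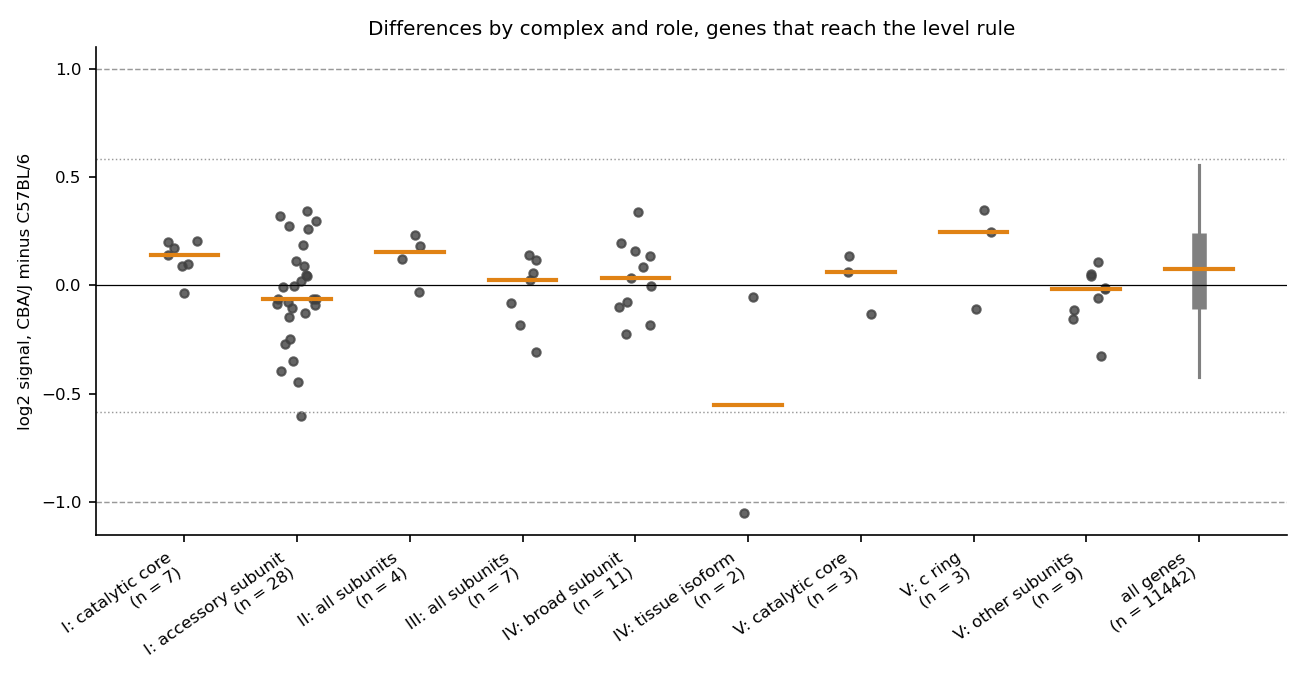
Log2 signal difference, CBA/J minus C57BL/6 (y axis), by complex and role (x axis) for genes that met the level rule, 1 point per gene, with a bar at the median, dotted lines at 1.5-fold and dashed lines at 2-fold. The last column shows all 11442 genes by their median of 0.076, a box between the quartiles and a line from the 5th to the 95th percentile. Points of the complex I core and of complex II lie mostly above 0, those of the accessory subunits on both sides, and Cox6a2 alone lies below the 2-fold line.

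Complex IV, cytochrome c oxidase, has 19 nuclear subunit genes here, 11 broadly expressed and 8 tissue isoforms or relatives. The mitochondrially encoded subunits, which form its catalytic centre, were not analysed here. All 11 broadly expressed genes met the level rule, with 6 higher and 5 lower in CBA/J and a median of 0.037. Cox4i1, an early subunit of assembly, had 9.50 on both arrays, with a difference of -0.0030. Cox5a had 8.53 in CBA/J against 8.63 in C57BL/6, and Cox5b had 9.94 in CBA/J against 9.81 in C57BL/6. These 3 differed by less than 0.2. Cox5b was read from a probe set on chromosome 13, and the one on its own chromosome 1 gave a difference of 0.092. Ndufa4, named for complex I but now placed in complex IV, had the largest difference upward, at 8.76 in CBA/J against 8.42 in C57BL/6, a difference of 0.34. Cox6c followed, at 9.46 in CBA/J against 9.27 in C57BL/6, a difference of 0.20. That Cox6c probe set lies on chromosome 12. The one on the gene's own chromosome 15 gave 0.15, under Cox6b1 at 0.16. Cox8a was lowest of the broad forms, at 8.02 in CBA/J against 8.25 in C57BL/6, a difference of -0.23. Directions of the 11 as a set changed with rescaling, to 4 higher and 7 lower after quantile normalization.

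The tissue isoforms were mostly at the level of background. The 5222 negative control probe sets had a median log2 signal of 5.49 on the CBA/J array and 5.27 on the C57BL/6 array and a 95th percentile of 8.28 and 8.17. None of the 8 isoforms passed that percentile on either array, and 2 of the 8, Cox6a2 and Cox8c, met the level rule. The partners Cox4i1, Cox6a1, Cox6b1, Cox7b and Ndufa4 passed the percentile on both arrays, Cox8a on the C57BL/6 array and Cox7a2 on neither. Cox7b passed it through a probe set on chromosome 1, and its own-chromosome probe set passed it on neither array. Over all 87 genes, 40 passed it on both arrays, and 83 were above the control median on both.

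Cox6a2, the heart and skeletal muscle form of subunit VIa, carried the largest difference of the whole set. Its log2 signal was 6.99 in CBA/J against 8.04 in C57BL/6, a difference of -1.05, or 2.08-fold higher in C57BL/6. The signal exceeded that of 83% of negative controls in CBA/J and of 94.5% in C57BL/6, so it lies within the range of the controls on both arrays. Its broad partner Cox6a1 had 8.62 in CBA/J against 8.58 in C57BL/6, a difference of 0.037, smaller than the 0.076 median of all genes. After quantile normalization, centring and removal of the trend the difference of Cox6a2 was -1.14, -1.13 and -1.16.

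Cox6a2 is also known to be expressed in plasmacytoid dendritic cells, and markers of those cells and of muscle were read beside it. Of 10 plasmacytoid markers, 7 met the level rule, 2 higher and 5 lower in CBA/J, with a median difference of -0.16. The linear signals of the 10 summed to 2215 in CBA/J and 2168 in C57BL/6, with single log2 signals from 4.99 to 10.13 in CBA/J and from 4.70 to 9.71 in C57BL/6. The highest of them in both strains was Klk1, at 10.13 in CBA/J against 9.71 in C57BL/6, so it weighs most in both sums. The defining marker Siglech was below the level rule, at 5.62 in CBA/J against 5.54 in C57BL/6, and Bst2, which other cells also express, had 7.93 in CBA/J against 8.69 in C57BL/6. Of 12 striated muscle markers, 4 met the level rule and all 4 were lower in CBA/J, with differences from -0.54 to -0.099. The linear signals of the 12 summed to 697 in CBA/J and 828 in C57BL/6, and single log2 signals ran from 3.65 to 6.77 in CBA/J and from 3.43 to 7.19 in C57BL/6. All 12 were thus below the 95th percentile of the negative controls on both arrays. The part of either cell type in the Cox6a2 difference was not tested.

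Of the other isoforms, Cox8c, a testis form, had 6.24 in CBA/J against 6.29 in C57BL/6. The lung and hypoxia form Cox4i2 had 5.92 in CBA/J against 6.03 in C57BL/6. The testis forms Cox6b2 and Cox7b2 had 5.80 and 3.36 in CBA/J, against 5.98 and 3.19 in C57BL/6. No testis marker of 8 met the level rule. The muscle forms Cox7a1 and Cox8b, whose promoters are given above, had 6.06 and 5.20 in CBA/J, against 5.68 and 5.18 in C57BL/6. Ndufa4l2, a relative of Ndufa4 known to be induced by hypoxia, had 5.40 in CBA/J against 5.77 in C57BL/6. All of these but Cox8c were below the level rule, and their differences, from -0.37 for Ndufa4l2 to 0.37 for Cox7a1, are between signals in the range of the negative controls.

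Among the broad partners of these isoforms, Cox6b1, which faces the intermembrane space, had 9.94 in CBA/J against 9.79 in C57BL/6, a difference of 0.16. Cox7a2 had 7.64 in CBA/J against 7.55 in C57BL/6, a difference of 0.084, and Cox7b had 8.92 in CBA/J against 9.0 in C57BL/6, a difference of -0.076. That Cox7b probe set lies on chromosome 1, and the one on the gene's own chromosome X had 7.38 in CBA/J against 7.55 in C57BL/6, a difference of -0.18.

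**Figure D3:**
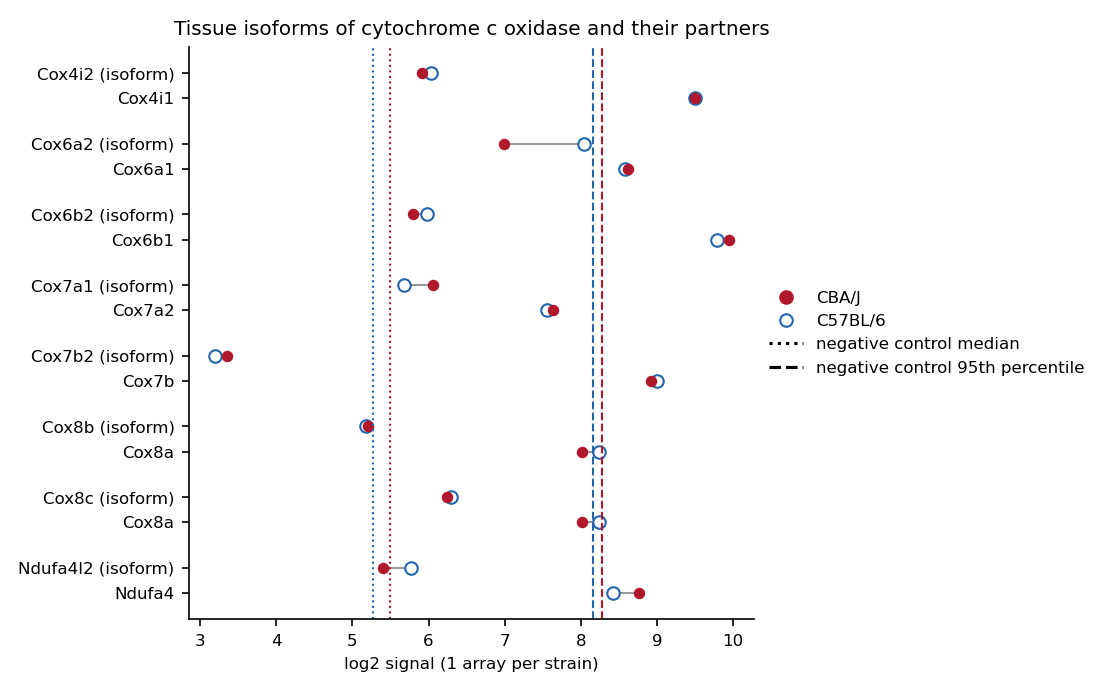
Log2 signal (x axis) of each tissue isoform and, below it, its broadly expressed partner (y axis) on the CBA/J array (filled red) and the C57BL/6 array (open blue), 1 array per strain. Vertical lines give the median (dotted) and 95th percentile (dashed) of the 5222 negative controls in the colour of their array. No isoform point lies beyond the dashed line of its array, and the values are to be compared between strains within a gene, since different probe sets differ in brightness.

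Cox7a2l, the supercomplex assembly factor SCAFI, joins complexes III and IV, and C57BL/6 mice are known to carry a shortened form of its protein. Its log2 signal was 9.35 in CBA/J against 9.31 in C57BL/6, a difference of 0.038, which was between -0.048 and -0.038 after the 3 rescalings. The transcript signal thus differed little between the strains, and the array does not read the protein form.

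Complex V, the ATP synthase, had 15 subunit genes, all above the level rule, 7 higher and 8 lower in CBA/J with a median of -0.013. After centring or removal of the trend 4 were higher and 11 lower. In the catalytic head, Atp5a1 (alpha) had 11.10 in CBA/J against 10.96 in C57BL/6, Atp5b (beta) had 11.45 in CBA/J against 11.39 in C57BL/6, and the gamma shaft Atp5c1 had 10.96 in CBA/J against 11.09 in C57BL/6. These 3 stayed within 0.14 of 0. Atp5e, the epsilon subunit of the shaft, was lower, at 8.0 in CBA/J against 8.33 in C57BL/6, a difference of -0.33. Atp5f1, subunit b of the outer stalk and now named Atp5pb, had 8.32 in CBA/J against 8.47 in C57BL/6, a difference of -0.15. The 7 stalk and membrane subunits lay between -0.15 and 0.11.

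The ring of c subunits, which turns as protons pass, is encoded by 3 genes that give the same mature protein and differ in their targeting peptide. On the log2 scale Atp5g1 gave a signal of 8.12 in CBA/J against 7.77 in C57BL/6, a difference of 0.35, the largest upward among members that met the rule. Atp5g3 had 9.73 in CBA/J against 9.49 in C57BL/6, a difference of 0.25. Atp5g2 had 9.49 in CBA/J against 9.60 in C57BL/6, a difference of -0.11. That Atp5g2 probe set lies on chromosome 7, and the one on the gene's own chromosome 15 also gave -0.11. The Atp5g1 and Atp5g3 genes were thus higher and Atp5g2 lower in CBA/J, and their order was not tested. Under centring or removal of the trend Atp5g2 was at -0.19.

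The 6 genes that are no structural subunits differed little. Ndufaf1 and Ndufaf2, assembly factors of complex I, had 7.08 and 6.57 in CBA/J, against 7.22 and 6.50 in C57BL/6. Atp5sl, now Dmac2 and a factor for the distal membrane arm of complex I, had 7.50 on both arrays. Atp5s, now Dmac2l and known as coupling factor B, was below the level rule, at 4.76 in CBA/J against 5.03 in C57BL/6, a difference of -0.27. Cox4nb, now Emc8, is a subunit of the endoplasmic reticulum membrane complex and no part of respiration, and had 7.34 in CBA/J against 7.41 in C57BL/6. Cox7a2l, above, is the sixth.

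Several genes were read by probe sets at more than one locus. Of the 87 genes, 15 had several probe sets, 37 in all, and for 13 of these the probe sets lay on more than 1 chromosome in the file. Processed copies of these genes are common in the mouse genome, and transcripts of near-identical copies cannot be told apart by their probes. For 8 of the 15 the brightest probe set, which represents the gene here, lay off the chromosome of the gene itself. The file's own flag for cross-hybridisation was set for none of them. Within a gene the differences ranged over 0.043 at the median and 0.35 at most, with a pooled SD of 0.073.

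Uqcr, now Uqcr11 and a small subunit of complex III, had the widest range and is named here after its values were seen. Its brightest probe set, on chromosome 1, had 7.34 in CBA/J against 7.42 in C57BL/6, a difference of -0.083. The probe set on its own chromosome 10 had 7.37 in CBA/J against 7.10 in C57BL/6, a difference of 0.27. The gene's sign thus depends on the probe set. Atp5l, subunit g of the ATP synthase, likewise chosen after its values were seen, had 6 probe sets with differences from -0.056 to 0.033, which straddle 0 narrowly. The other 13 genes kept one sign in all their probe sets, and Uqcrb, with probe sets on chromosomes 1, 13 and 14, had -0.18, -0.28 and -0.31. With each gene read from its own chromosome, 41 members were higher and 38 lower in CBA/J.

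**Figure D4:**
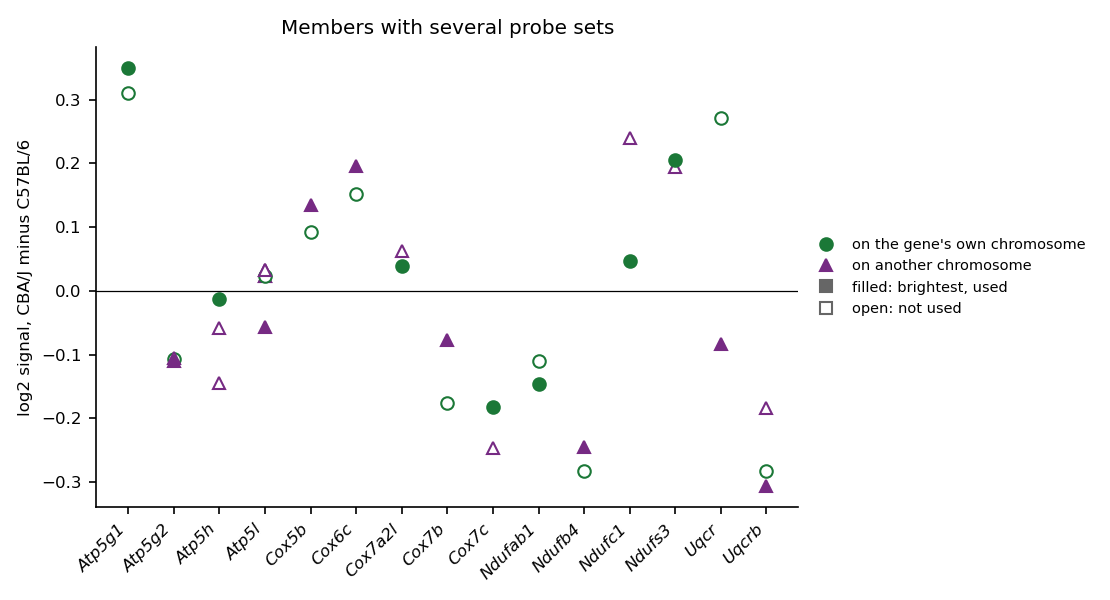
Log2 signal difference, CBA/J minus C57BL/6 (y axis), of each probe set of the 15 genes with several (x axis), with circles for probe sets on the gene's own chromosome and triangles for those on another, filled for the brightest, which was used, and open for the rest. The symbols of a gene mostly cluster, and those of Uqcr lie on both sides of 0, at -0.083 and 0.27.

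Other genes of mitochondrial respiration were read from lists. Assembly factors and related proteins outside the prefixes, 22 at the level rule, had 12 higher and 10 lower in CBA/J and a median of 0.066. Ecsit, an assembly factor of complex I that also acts in Toll-like receptor signalling, had 6.80 in CBA/J against 6.33 in C57BL/6, and Lrpprc, which stabilises mitochondrial mRNAs, had 8.92 in CBA/J against 8.46 in C57BL/6. Lower were Cox17, a copper chaperone for complex IV, at 7.62 in CBA/J against 8.05 in C57BL/6, and Usmg5, a small protein of the ATP synthase, at 9.14 in CBA/J against 9.55 in C57BL/6. None of the 22 passed 1.5-fold in either direction. Over all genes 2.47% were past it downward and 4.46% upward, so finding none says little in a list this short. Usmg5 too was read from 1 of several probe sets, as were Cycs, Slc25a5, Vdac2, Vdac3 and Ppargc1a below. The same holds for Coq10a, Tfb2m, Ssbp1 and Suclg2, which enter the counts below without being named. The probe sets used lay on chromosome X for Usmg5 and on chromosome 5 for Cycs and Vdac2. Whether the probe sets of listed genes lie on the gene's own chromosome was not checked, so these values may come from copies at other loci.

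The electron carriers and remaining subunits, 6 genes, had 3 higher and 3 lower. Dhodh, which feeds electrons from pyrimidine synthesis to ubiquinone, had 6.84 in CBA/J against 6.54 in C57BL/6, and Cyc1, cytochrome c1 of complex III, had 8.90 in CBA/J against 8.76 in C57BL/6. Etfb, of the electron transfer flavoprotein, had 9.05 in CBA/J against 9.20 in C57BL/6, and Cycs, cytochrome c, had 9.15 in CBA/J against 9.18 in C57BL/6. This mixture of small differences held also for coenzyme Q synthesis, with 5 higher and 6 lower of 11 and a median of -0.029. There Coq5, a methyltransferase, had 7.68 in CBA/J against 7.09 in C57BL/6, a difference of 0.58, just under the 1.5-fold mark. Pdss2, which makes the polyprenyl tail, was at 0.26, and Coq2 and Coq10b were at -0.16 and -0.15.

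The regulators of mitochondrial biogenesis leaned higher in CBA/J. Of 17 at the level rule 14 were higher and 3 lower, with a median of 0.23, against 61.3% higher and a median of 0.076 over all genes. After the 3 rescalings 13 or 14 were higher and the median was 0.15. Peo1, the helicase of mitochondrial DNA, had 6.87 in CBA/J against 6.34 in C57BL/6, a difference of 0.53. Pprc1, a coactivator related to PGC-1, had 7.46 in CBA/J against 7.02 in C57BL/6, a difference of 0.44. Esrra, a nuclear receptor that drives subunit genes, was lower, at 7.45 in CBA/J against 7.77 in C57BL/6, and Polrmt, the mitochondrial RNA polymerase, had 7.66 in CBA/J against 7.72 in C57BL/6. Ppargc1a, Mterfd3 and Polg2, also on the list, were below the level rule and below the negative control median on both arrays. Their differences were -0.060, -0.074 and 0.25. None of the 17 passed 1.5-fold, which says little at the shares of 2.47% lower and 4.46% higher over all genes. The lean stands in 1 culture per strain.

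Of 18 TCA cycle genes, pyruvate entry included, 13 were higher and 5 lower in CBA/J with a median of 0.10, and after each rescaling 10 were higher and 8 lower. Pdhx, of the pyruvate dehydrogenase complex, had 7.20 in CBA/J against 6.63 in C57BL/6, and Fh1, fumarase, had 8.45 in CBA/J against 7.94 in C57BL/6. Pcx, pyruvate carboxylase, which makes oxaloacetate from pyruvate, had 6.22 in CBA/J against 7.05 in C57BL/6, a difference of -0.83. It was the only one of the list past 1.5-fold. Over all genes 2.47% were past that mark downward and 4.46% upward, so a single such gene in 18 says little. Cs, citrate synthase, had 9.51 in CBA/J against 9.61 in C57BL/6. The 6 carriers and porins at the level rule lay between -0.066 for Vdac1 and 0.09 for Vdac3, with Vdac2 at -0.055 and Slc25a5, an ADP/ATP carrier, at 0.077.

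Of 12 hypoxia-responsive genes, 5 were higher and 7 lower in CBA/J, with a median of -0.043. Vegfa, a vascular growth factor, had 10.50 in CBA/J against 10.98 in C57BL/6, and Egln3, a prolyl hydroxylase, had 8.47 in CBA/J against 8.90 in C57BL/6. Higher were Epas1, a hypoxia-inducible factor, at 6.26 in CBA/J against 5.84 in C57BL/6, and P4ha1, a collagen hydroxylase, at 9.87 in CBA/J against 9.53 in C57BL/6. None passed 1.5-fold, against 2.47% lower and 4.46% higher over all genes, which says little for 12 genes. The genes of the list moved both ways.

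**Figure D5:**
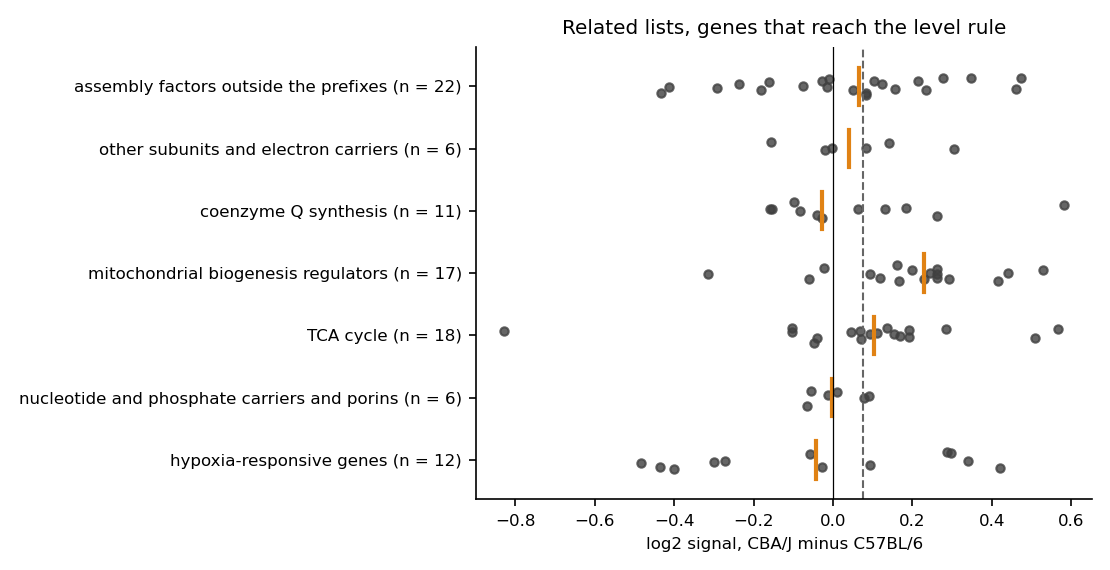
Log2 signal difference, CBA/J minus C57BL/6 (x axis), of the genes of 7 related lists that met the level rule (y axis), 1 point per gene, with an orange bar at each list's median and a dashed line at 0.076, the median of all genes. The bar of the mitochondrial biogenesis regulators, at 0.23, lies to the right of the dashed line, and Pcx of the TCA cycle is the point farthest to the left.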

How the data were processed

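RNA of 2 cultures, 1 per strain, was hybridised to 2 arrays. The authors deposited log2 signals of 35557 probe sets. The submitters' processing notes name Affymetrix Expression Console 1.1, and how it summarized and normalized the probes was not given in the sources used here. Per the file headers, the table also holds the authors' log2 difference and a linear fold ratio, and the deposited log2 columns were used to compute all differences. The same values stand in the deposited series value table.

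Probe sets with 1 gene symbol were kept, 25 symbols that had become dates were restored by accession, and the brightest probe set stood for each gene. Current names and the chromosome of each gene came from the RefSeq gene table of GRCm38.p6, matched by accession for 85 of the 87 genes and by symbol for 2. Other chromosomes are those of the file.

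Members were counted past 1.5-fold and 2-fold among genes at the level rule. With 1 array per strain no test was made, and the number of arrays limits the precision. Genes named are the tissue isoforms and their partners, the catalytic subunits, Cox7a2l, the Atp5g genes, all non-subunits, members past 1.5-fold, the 2 largest differences each way in each complex and each other list, and any member whose probe sets differed in direction past 1.5-fold, which none did. For 1 gene among these, single values are not reported here. Members, lists and markers were chosen with earlier results of these data known.

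Alternatives in scaling (lowess span 0.3 for the trend), level filter, threshold, probe set choice and member list were recomputed, and reading each gene from its own chromosome was added after seeing the data. The calculations were run on simulated differences without noise, which checks the code and says nothing about array error. Python 3.11.15, numpy 2.4.6, pandas 2.3.3, statsmodels 0.14.6 and matplotlib 3.10.9 were used.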

Additional observations from a re-analysis of the deposited data

How the results depend on the processing

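No paired analysis was possible because each strain has 1 array, and for the same reason no replicate could be left out. As a yardstick for medians, the pooled SD between probe sets of a gene, 0.073, was used, which is no biological error. Of 65 summary values recomputed, 50 moved by less than that or, for counts, by less than 1.5 times, and 15 moved more. After quantile normalization the median of complex I was -0.082 and that of complex II 0.071. Centred on the median of all genes, the median was -0.079 for all members, -0.079 for complex I, 0.078 for complex II, -0.051 for complex III, -0.079 for complex IV and -0.089 for complex V. With the trend along signal level removed it was -0.082 for complex I, 0.050 for complex II and -0.061 for complex III. Centring subtracts 0.076 by construction, and for the others the cause was not tested. Of 43 medians 12 changed sign, all within 0.1 of 0. At log2 thresholds of 0.5, 1.5 and 0.3 the members past the threshold were 2, 0 and 11. The shares of all genes past these thresholds were not computed, so the counts show only how the member count moves with the cut-off. With the 95th percentile of the negative controls as the level rule, 0 of the 8 tissue isoforms met it. A member with a positive difference under 0.076 turns negative under centring by construction, as Cox7a2l, Cox6a1, Uqcrc2, Uqcrfs1, Atp5b and Ndufaf2 did. With no spread between arrays, differences of the size most members show cannot be told from array error here.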
